A study of Mus musculus with 12 samples.

Results

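Immediate early genes and ERK phosphatases were followed in injected A20 tumors through 7 genes of a 770-gene panel. The members were taken by their symbols from the rows of the deposited table and are Egr1, Egr2 and Egr3 (zinc finger transcription factors), Fos and Jun (subunits of the transcription factor AP-1), and Dusp4 and Dusp6 (phosphatases that remove the activating phosphates from MAP kinases). A20 is a B-cell lymphoma line of the Balb/c mouse, and 5000000 cells were placed under the skin of female Balb/c mice. About 7 days later 4 tumors were injected with PBS, 4 with SE (a stable oil-in-water emulsion) and 4 with GLA-SE, which is 10 µg of GLA, a synthetic lipid A that activates TLR4, in 50 µl of 2% SE. Each tumor came from its own mouse, received 3 injections on alternate days, and was taken whole 2 h after the last one, so every value mixes lymphoma cells with host cells. All 7 members were counted at 20 or more in each of the 12 tumors.

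Immediate early genes are transcribed within minutes of a signal, without new protein synthesis, and their short-lived messages fall again once the signal ends. In the ERK branch of the pathway the MEK kinases activate the ERK kinases, which activate ternary complex factors such as ELK1 at the CArG boxes bound by serum response factor, in front of genes such as Egr1 and Fos. TLR4 reaches the same kinases through MyD88 and TAK1 in macrophages and B cells. Dusp6 encodes a cytoplasmic phosphatase selective for ERK and Dusp4 a nuclear one that also acts on JNK and p38, and both are induced by ERK signaling and switch it off.

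The RefSeq promoter windows of GRCm38.p6, which reach from 250 bases before to 50 bases after an annotated start, were read for the CArG box, the CRE (TGACGTCA), the AP-1 site (TGACTCA) and the EGR site (GCGTGGGCG) on both strands. Windows were at hand for Egr2 (5 starts), Fos, Jun and Dusp6 (1 start each). The table has no entry for Egr1, Egr3 and Dusp4. CArG boxes stood in 4 of the 5 Egr2 windows at 2 positions, with none of the other motifs. The windows of Fos, Jun and Dusp6 held none of the motifs, the CArG box included. Sites more than 250 bases before a start were not read. The CArG box occurred in 1.63% of the 32851 promoter windows, the CRE in 1.79%, the AP-1 site in 5.2% and the EGR site in 0.612%. Both Egr2 sites, shown here because they are the elements through which an ERK signal is known to reach this gene family, lie on the + strand 72 bases before an annotated start of Egr2, with the CArG box in capitals.
Egr2, chr10:67537484-67537513: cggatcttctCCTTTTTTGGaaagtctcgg
Egr2, chr10:67537787-67537816: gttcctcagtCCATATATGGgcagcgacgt

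Total counts per tumor were 812522 to 1086462 with PBS, 810260 to 1268512 with SE and 1186487 to 1612415 with GLA-SE. Values are given as normalized counts, the deposited counts scaled to the geometric mean of 16 of the 20 reference genes, which was 1972 to 2558 counts with PBS, 1693 to 1932 with GLA-SE and 926.6 to 2806 with SE. SE replicate 4 had the lowest of these, so its normalized counts are about 2.02 times its deposited ones. All 7 B-cell markers were counted in all tumors, with no count under 41. A normalized count compares a gene between tumors and not one gene with another, because probes differ in efficiency.

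**Figure D1:**
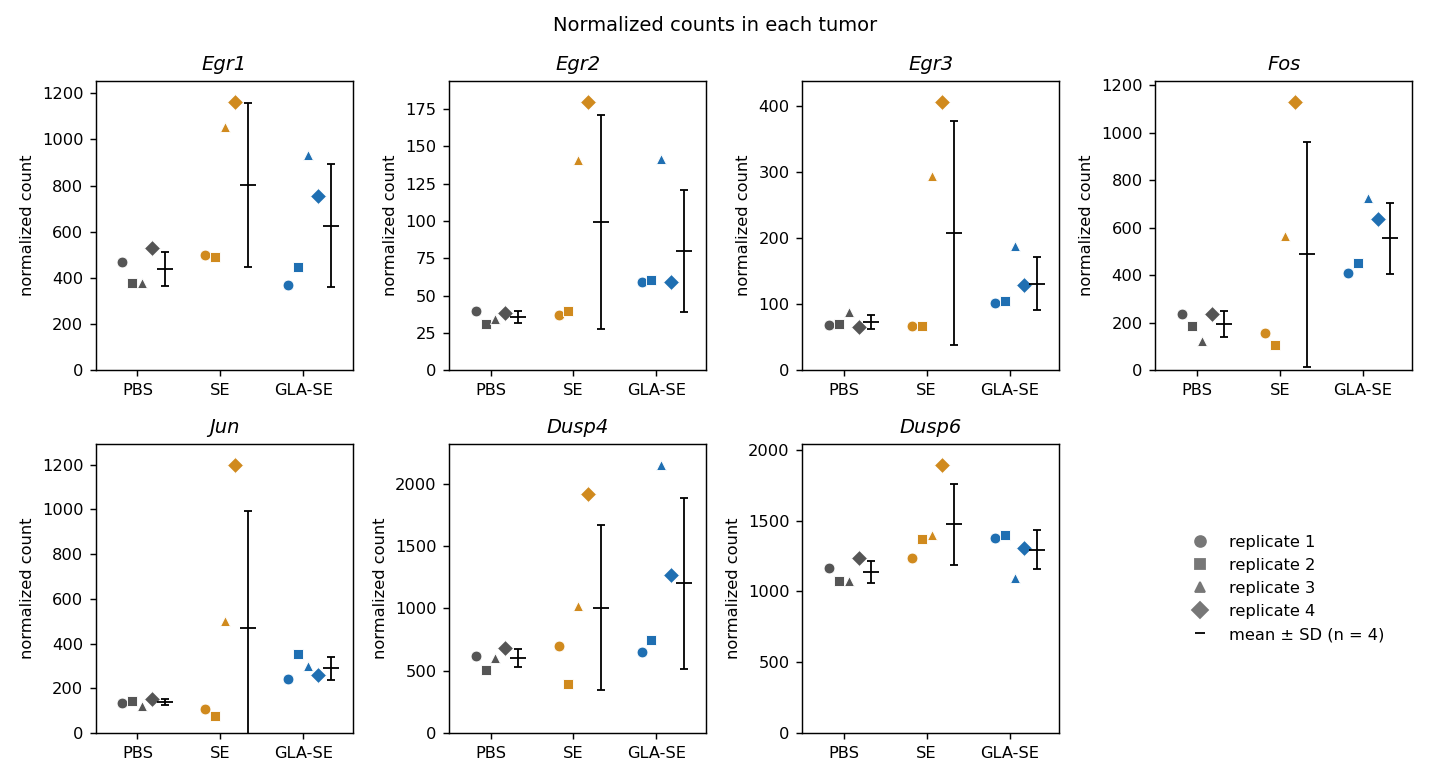
Normalized count (y axis, linear, from 0) of each gene in the 12 tumors by group, with the marker showing the replicate and the bar the mean ± SD of 4 tumors, cut off at 0 for Jun with SE. SE replicates 3 and 4 lie above all PBS tumors for each gene, SE replicates 1 and 2 lie near or below the PBS tumors for Egr3, Fos and Jun, and Dusp6 varies least.

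GLA-SE against PBS asks what the TLR4 agonist in its emulsion did. At 2 h after the last injection 5 of the 7 genes were higher with GLA-SE than with PBS, led by Fos at 2.84-fold, and Egr1 and Dusp6 were not called. Among all 750 genes tested, 68.4% were called higher in this comparison, so a count of 5 of 7 is close to the share on the whole panel. In 4 genes (Fos, Jun, Egr2 and Egr3) every GLA-SE tumor lay above every PBS tumor, which held for 63.7% of the 750 genes.

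Fos was counted at 236.9, 185.9, 122.0 and 236.9 in the PBS tumors and at 407.4, 451.6, 724.3 and 637.1 in the GLA-SE tumors. The lowest GLA-SE tumor was well above the highest PBS tumor. The means were 195 ± 54.5 and 555 ± 150 (SD, n = 4), a log2 fold change of 1.51 (standard error 0.27, edgeR adjusted p = 0.00172, exact permutation p = 0.0286). This p is the smallest that 4 tumors against 4 allow.

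Jun had PBS values of 131.7, 143.9, 119.8 and 152.6 and GLA-SE values of 240.0, 353.8, 300.3 and 259.7. Both groups were tight and far apart. Its mean rose from 137 ± 14.3 to 288 ± 50.3 (SD, n = 4), a 2.10-fold rise (log2 fold change 1.07, standard error 0.18, edgeR adjusted p = 0.00116). Of the 7 genes only Dusp6 had a smaller standard error.

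Egr2, a factor known in lymphocytes and macrophages as a brake on activation, was the lowest-counted member, with deposited counts from 33 upwards. Its PBS values were 39.8, 30.8, 34.3 and 38.2 and its GLA-SE values 59.0, 60.3, 141.3 and 59.3. GLA-SE replicates 1, 2 and 4 were nearly equal and replicate 3 stood far above them. The log2 fold change was 1.16 (standard error 0.33, edgeR adjusted p = 0.0131) with all tumors and 0.73 (adjusted p = 0.00827) without GLA-SE replicate 3. Egr3 gave 68.2, 70.1, 88.4 and 66.0 with PBS and 101.6, 105.1, 188.8 and 128.8 with GLA-SE, again highest in replicate 3 (log2 fold change 0.84, standard error 0.25, edgeR adjusted p = 0.0148).

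Egr1, the best known ERK target of the family, behaved unevenly. It had PBS values of 468.2, 377.4, 378.5 and 530.2 and GLA-SE values of 369.6, 445.3, 934.1 and 756.7. GLA-SE replicates 1 and 2 lay in or below the PBS range and replicates 3 and 4 above it. The log2 fold change of 0.51 (95% interval -0.16 to 1.18) did not pass the test (edgeR adjusted p = 0.148). Of the fits that left out 1 tumor, it passed only in that without GLA-SE replicate 1 (0.70, adjusted p = 0.0411), and it was lowest without GLA-SE replicate 3 (0.26).

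The phosphatases differed in pattern. Dusp4 was at 614.1, 502.6, 603.5 and 681.2 with PBS and at 652.2, 747.0, 2151.9 and 1266.0 with GLA-SE, so replicate 1 stayed within the PBS range while replicate 3 was the highest of all 12 tumors. Its call (log2 fold change 1.00, standard error 0.35, edgeR adjusted p = 0.0317) comes with overlapping groups (exact permutation p = 0.0571). That call was lost on leaving out GLA-SE replicate 3 (0.56, adjusted p = 0.0542), GLA-SE replicate 4 (0.98, adjusted p = 0.0604) or any 1 PBS tumor (0.93 to 1.07).

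Dusp6 was nearly level. Its values were 1164.7, 1071.4, 1073.4 and 1234.5 with PBS and 1374.0, 1399.4, 1097.5 and 1304.8 with GLA-SE. GLA-SE replicate 3, the top tumor for Dusp4, was the lowest GLA-SE tumor for Dusp6 and the only one within the PBS range. The log2 fold change was 0.19 (95% interval -0.07 to 0.44, edgeR adjusted p = 0.161), and 0.26 without that tumor, which passed the test (adjusted p = 0.0261).

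The scale sets the sign of several of these changes. On the reference gene scale the median gene of the panel was 0.90 log2 units higher with GLA-SE, with 513 genes called higher and 3 lower. Scaled to the panel median, this shift was -0.40, with 61 called higher and 307 lower, and with TMM it was -0.01, with 148 higher and 168 lower. Relative to the median gene, Fos lay 0.60 to 0.62 log2 units above it over 7 scalings, Egr2 0.21 to 0.26 above, Jun 0.16 to 0.17 above, Dusp4 0.05 to 0.10 above, and Egr3 (-0.10 to -0.06), Egr1 (-0.41 to -0.39) and Dusp6 (-0.72 to -0.68) below. In this ranking 20.9% of the genes had a larger log2 fold change than Fos and 86.3% a larger one than Dusp6. A change of scaling moves all genes nearly alike. The distances from the median gene thus hold by construction and do not measure the spread between tumors. The log2 fold change of Fos was above 0 under each of these scalings, down to 0.22, whereas Dusp6 was called lower with panel median scaling, TMM and the size factors of DESeq2.

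**Figure D2:**
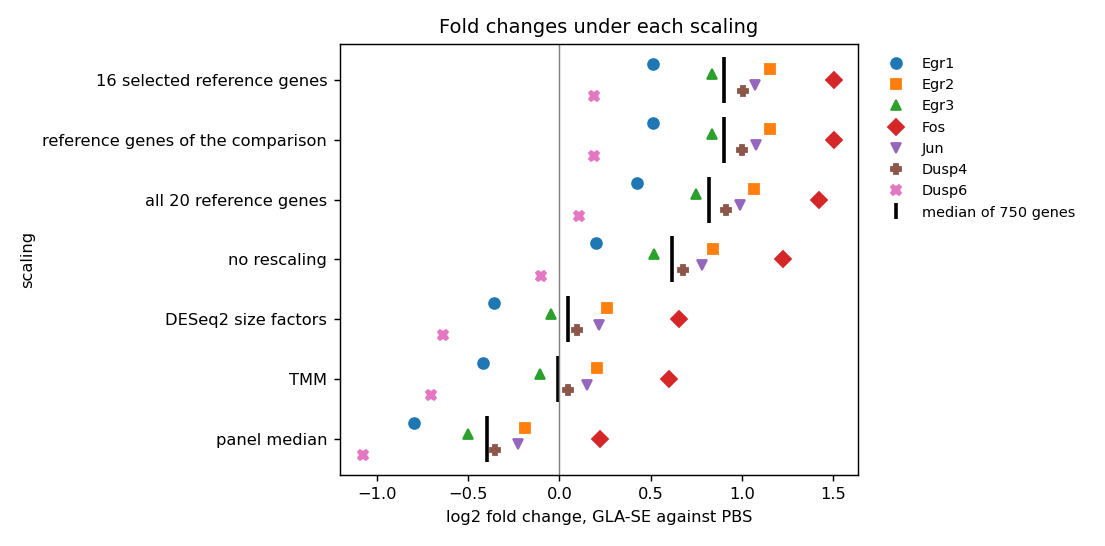
Log2 fold change (x axis) of each gene, GLA-SE against PBS, under 7 scalings (y axis), with a black bar at the median of the 750 genes. A scaling shifts all genes nearly alike, so their order holds by construction, from Fos 0.60 to 0.62 above the median gene to Dusp6 0.68 to 0.72 below it.

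Host cell markers moved with the same contrast. All 7 monocyte and macrophage markers and all 7 endothelial and fibroblast markers were called higher with GLA-SE, with 5 of 7 T-cell, 4 of 7 neutrophil and 4 of 6 NK-cell markers, while 2 of 7 B-cell markers were called lower. Of the 750 genes, 68.4% were called higher and 3 genes lower. The T-cell, neutrophil and NK-cell counts are thus near or below the panel's share. Calls of the marker lists were not counted under the other scalings. Summed over the list, the monocyte and macrophage markers ranged from 2717 to 3903 with PBS and from 8267 to 19197 with GLA-SE. The endothelial and fibroblast sums were 3906 to 8976 and 17878 to 26055, the T-cell sums 1275 to 3185 and 3979 to 5332, the neutrophil sums 274 to 328 and 1237 to 11434, and the NK-cell sums 412 to 858 and 1779 to 3393. Most of the endothelial and fibroblast sums came from the collagen genes Col1a1 and Col3a1. Their means were 2098.5 and 4321.6 with PBS and 6835 and 13432 with GLA-SE. Pecam1, the next highest of that list, had means of 361 and 800. The B-cell sums were 18175 to 21376 with PBS and 14607 to 17026 with GLA-SE. No marker of these lists was at 0 in any tumor, but some neutrophil and NK-cell markers were under 20 counts. The lowest deposited counts were 6 with PBS and 8 with GLA-SE for neutrophil markers, and 17 and 10 for NK-cell markers. In whole tumors a change in the number of cells of a type and a change in RNA per cell cannot be told apart, and the part of these markers in the rise of the 5 genes was not tested. The neutrophil and the monocyte and macrophage sums were both highest of the GLA-SE tumors in replicate 3 (11434 and 19197), the tumor with the highest Egr1, Egr2, Egr3, Fos and Dusp4 of that group. The T-cell sum was also highest there (5332). Jun and Dusp6 were instead highest in GLA-SE replicate 2 (353.8 and 1399.4), as was the endothelial and fibroblast sum (26055). Dusp6 was lowest in replicate 3 (1097.5), and the NK-cell sum was highest in replicate 4 (3393).

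**Figure D3:**
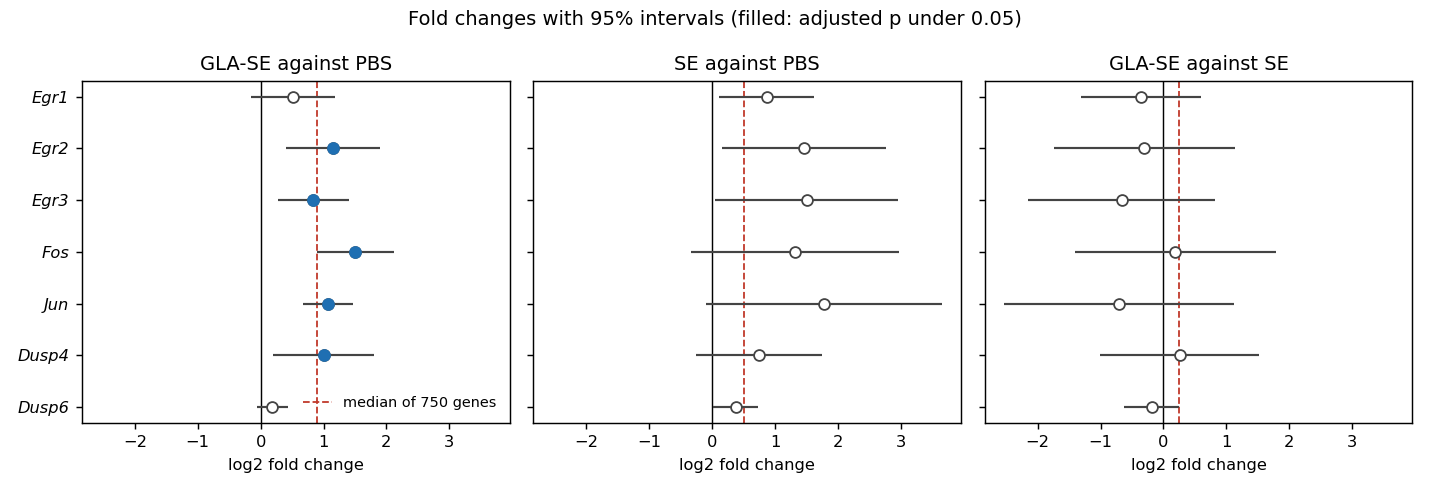
Log2 fold change (x axis) of each gene with its 95% interval in the 3 comparisons of 4 tumors against 4, filled where the adjusted p is under 0.05, with a dashed red line at the median of the 750 genes. Filled points occur only for GLA-SE against PBS, and the intervals of SE against PBS are wide for all genes except Dusp6.

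SE against PBS asks what the emulsion did without the agonist. None of the 7 genes was called, as for the panel as a whole, where 0% of the 750 genes were called higher by edgeR. At an unadjusted p under 0.05 there were 134 genes and 4 members (Egr1, Egr2, Egr3 and Dusp6), and DESeq2 called 7 genes higher with its own size factors and 47 with those of the reference genes, with 0 members in both. The fold changes were still large, with log2 values of 1.78 for Jun, 1.50 for Egr3, 1.46 for Egr2, 1.32 for Fos, 0.87 for Egr1, 0.74 for Dusp4 and 0.38 for Dusp6, and with edgeR adjusted p from 0.256 to 0.301. For Jun only 8.67% of the genes had a larger log2 fold change in this comparison.

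The SE tumors were widely spread. Jun was at 105.2, 77.7, 502.0 and 1198.2 in SE replicates 1 to 4, with the first pair below and the other pair above all PBS tumors. Fos followed with 157.9, 104.3, 564.2 and 1127.6, and Egr3 with 67.3, 66.5, 294.0 and 405.5. The same pair of high tumors appeared each time.

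In Egr2 the SE values were 37.3, 39.9, 140.8 and 179.5, and in Egr1 500.2, 490.7, 1052.5 and 1159.9. Dusp4 gave 696.7, 389.5, 1022.6 and 1918.4. SE replicate 3 exceeded the PBS range in 7 of 7 genes and SE replicate 4 in 7 of 7, against 2 of 7 for replicate 1 and 2 of 7 for replicate 2. SE replicate 1 lay below that range in 1 gene and SE replicate 2 in 3. The share of the 750 genes beyond the PBS range was not counted for single tumors. The median gene was itself 0.51 log2 units higher with SE than with PBS. The coefficient of variation for Jun was 111% with SE, 10.4% with PBS and 17.4% with GLA-SE.

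Dusp6 was the exception, with SE values of 1235.6, 1370.0, 1398.8 and 1892.1. All 4 lay above the highest PBS tumor (1234.5), the first barely, a pattern found in 8% of the 750 genes (exact permutation p = 0.0286, edgeR adjusted p = 0.256). Its direction turned to -0.03 with panel median scaling, -0.05 with TMM and -0.04 without rescaling.

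SE replicate 4 was the highest of the 12 tumors for 6 of the 7 genes on normalized counts and for 1 of the 7, Jun, on deposited counts. How often it was the highest over the whole panel was not counted. Without SE replicate 4 the log2 fold changes over PBS were 0.73 for Jun, 0.49 for Fos, 0.95 for Egr3, 1.01 for Egr2, 0.63 for Egr1, 0.23 for Dusp4 and 0.23 for Dusp6, none of which was called. Endothelial and fibroblast markers summed to 3331, 4157, 27716 and 119040 in SE replicates 1 to 4, and monocyte and macrophage markers to 2603, 2142, 11289 and 17259. The collagen genes Col1a1 and Col3a1 made up most of the endothelial and fibroblast sums. Their means with SE were 8807 and 28096, beside 757 for Pecam1, the next highest of that list. T-cell sums were 1112, 1191, 2722 and 8797, neutrophil sums 275.1, 281.2, 837.0 and 4648, and NK-cell sums 494, 429, 942 and 1505, while B-cell sums were 18189, 20532, 15509 and 12525. Within the SE group, replicates 3 and 4 thus held both the highest immediate early genes and the most host marker RNA, and the part of these markers in the result was not tested.

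**Figure D4:**
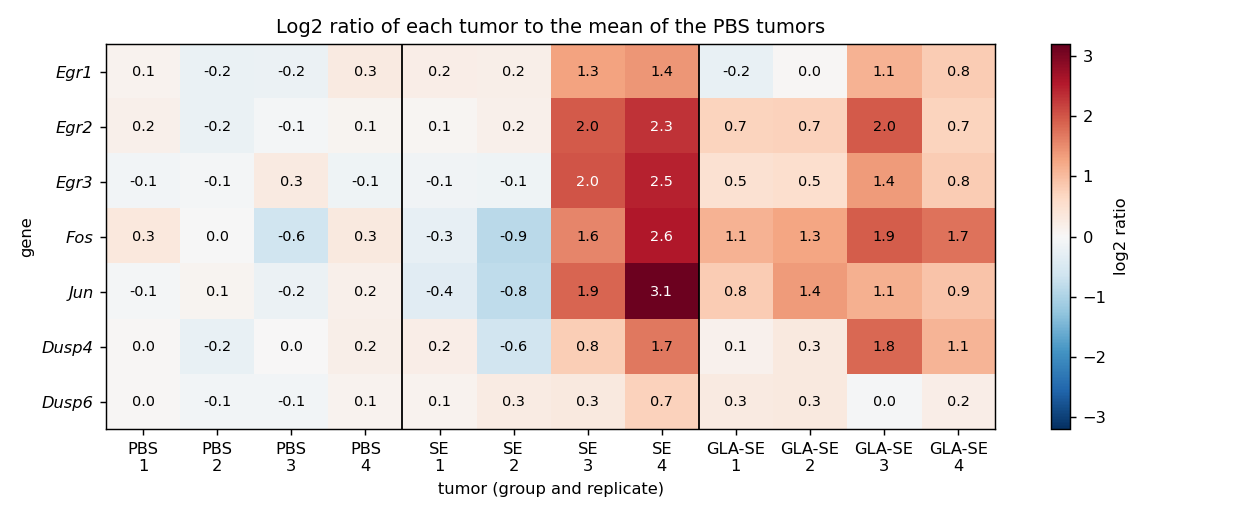
Log2 ratio of each tumor (x axis, group and replicate) to the mean log2 value of the PBS tumors for each gene (y axis), in red above and in blue below PBS. SE replicates 3 and 4 are above PBS in each row, GLA-SE replicate 3 in each row but that of Dusp6, and SE replicates 1 and 2 are at or below PBS for Egr3, Fos and Jun.

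GLA-SE against SE asks what GLA added to the emulsion. None of the 7 genes was called in either direction and none had an unadjusted p under 0.05, beside 2.13% of the 750 genes called higher. Those 16 genes were 104 without SE replicate 4, 4 without SE replicate 3, GLA-SE replicate 2 or GLA-SE replicate 4, 9 and 7 without SE replicates 1 and 2, 88 without rescaling and 111 by DESeq2 with the reference gene size factors, while the members called stayed at 0. No member had all GLA-SE tumors above all SE tumors, which 14.7% of the genes did. The log2 fold changes ran from -0.70 for Jun to 0.26 for Dusp4, with edgeR adjusted p from 0.680 to 0.932, while the median gene was 0.25 higher with GLA-SE. Their 95% intervals were wide, from -2.53 to 1.13 for Jun and from -1.41 to 1.78 for Fos, and narrowest for Dusp6 (-0.62 to 0.25). The direction turned on leaving out single tumors, to 0.34 for Jun and 0.15 for Egr2 without SE replicate 4, to -0.15 for Fos without SE replicate 2 and to -0.18 for Dusp4 without GLA-SE replicate 3. A doubling and a halving both lay within the intervals of Egr2, Fos, Jun and Dusp4.

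By group mean, Egr1, Egr2, Egr3, Jun and Dusp6 were ordered PBS, GLA-SE, SE and Fos and Dusp4 were ordered PBS, SE, GLA-SE. GLA-SE and SE, which stood next to each other in all of these orders, did not differ beyond their spread. GLA-SE was the more even group for Jun (240.0 to 353.8, against 77.7 to 1198.2 with SE) and for Fos (407.4 to 724.3, against 104.3 to 1127.6). The difference in spread itself was not tested. The comparisons share tumors, as each group serves in 2 of them.

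Across the 12 tumors, after centring log2 values on each group's mean, the genes other than Dusp6 varied together, with a Pearson r of 0.70 (Egr1 with Jun) to 0.95 (Egr2 with Egr3) for their 15 pairs. Dusp6 had an r of 0.23 with Dusp4 and of 0.68 at most, with Jun. Without SE replicate 4 the 15 pairs gave 0.51 to 0.92, and Dusp6 gave -0.51 with Dusp4 and no more than 0.22 with any member, so the likeness of Dusp6 to the others rests on that tumor. These values describe 12 tumors that share the reference scale, and the median r with the 667 other genes of mean normalized count of at least 20 was already 0.48 for Dusp6 and 0.64 to 0.77 for the other members.

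The genes most like each member differed between members. Egr1 was closest to Serpinb2, a protease inhibitor of macrophages (r = 0.96), and to the chemokine genes Ccl4 (0.95) and Ccl3 (0.94). Dusp4 was closest to Socs3, a feedback inhibitor of cytokine receptors (0.96), Traf6, an adaptor below Toll-like receptors (0.96), and Arg2, an arginase (0.96). Egr2 went with the adhesion gene Alcam, the urokinase receptor gene Plaur and Irak3, an inhibitor of Toll-like receptor signaling (each 0.98), and Egr3 with the complement genes Cfp and Masp1 and with Il1rap (each 0.97). Fos was nearest to Vim, an intermediate filament gene of mesenchymal cells, Ifitm2 and the complement receptor C5ar1 (each 0.98), and Jun to Ltbr, Il13ra1 and Tnfsf12 (each 0.99). For these 6 genes the values without SE replicate 4 were 0.93 or higher. For Dusp6 the leading genes were Txnip, Mapk14, which encodes p38α, and Tnfsf10 (0.92, 0.92 and 0.91), and without SE replicate 4 these fell to 0.80, 0.78 and 0.81.

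The cascade that leads to the members is also on the panel. Of the 5 genes of the ERK module, 3 were called higher with GLA-SE than with PBS, where 68.4% of the panel was, with a median log2 fold change of 0.27 beside 1.00 for the 7 members and 0.90 for the panel. They were Mapk3, which encodes ERK1 (0.52, standard error 0.12, edgeR adjusted p = 0.00493), Map2k2, which encodes MEK2 (0.27, standard error 0.09, adjusted p = 0.0300), and Elk1 (0.58, standard error 0.23, adjusted p = 0.0464). Map2k1, which encodes MEK1, gave 0.05 (adjusted p = 0.724) and Hras 0.12 (adjusted p = 0.679). All 5 were below 0 with panel median scaling, TMM and the size factors of DESeq2. With panel median scaling all 5 were called lower (edgeR adjusted p from 0.000299 for Map2k1 to 0.0360 for Elk1), among 307 genes of the panel. Mapk3, Map2k1 and Map2k2 were also called lower with TMM and with the size factors of DESeq2, and Hras with TMM. On the reference gene scale the calls of Map2k2 and Elk1 as higher held in only 4 and 2 of the 8 fits that left out 1 tumor (0.24 to 0.30 and 0.47 to 0.68 over all 8). The list count fell from 3 to 1 without PBS replicate 1, 3 or 4 or GLA-SE replicate 2. These messages are not measures of kinase activity.

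Of the 10 JNK, p38 and TAK1 pathway kinases and adaptors, 6 were called higher (median 0.38), led by the MAP3 kinase genes Map3k1 (0.82, standard error 0.17) and Map3k5 (0.80, standard error 0.15). Of 8 CREB, ATF and AP-1 partner genes, 4 were called higher (median 0.31), led by Creb5 (1.13, standard error 0.22), a CRE-binding factor, and Maf (1.11, standard error 0.35), a leucine zipper factor. Of 6 NFAT and Ets family and related factors, 4 were called higher (median 0.45), led by Nfatc2 (1.15, standard error 0.22) and Nfatc4 (0.57, standard error 0.20), whose products are calcineurin-dependent factors. Map3k1, Map3k5 and Nfatc4 changed sign with panel median scaling, TMM and the size factors of DESeq2, and Creb5, Maf and Nfatc2 with panel median scaling. The calls of Maf and Nfatc4 held in 5 and 2 of the 8 fits that left out 1 tumor. In the fit on the reference gene scale no gene of these lists was called lower, whereas Map3k1 and Map3k5 were with panel median scaling (-0.51 and -0.52, edgeR adjusted p = 0.0344 and 0.0473). The 3 list counts are below the panel's share of 68.4%, and each was 0 with panel median scaling, TMM and the size factors of DESeq2.

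On the input side, 9 of 11 genes of TLR4 and its signaling partners were called higher (median 0.54), led by Cd14, a co-receptor for lipid A that is also a monocyte marker (3.71, standard error 0.93, edgeR adjusted p = 0.00777), and Lbp, which passes lipid A to it (1.81, standard error 0.36, adjusted p = 0.00258). Without GLA-SE replicate 3 the log2 fold change of Cd14 was 2.00. Of 12 other early induced genes 10 were called higher (median 1.66), led by Ptgs2, which encodes cyclooxygenase-2 (4.29, standard error 1.11, adjusted p = 0.00861), and the neutrophil chemokine gene Cxcl1 (3.96, standard error 0.98, adjusted p = 0.00736). Without GLA-SE replicate 3 these were 2.19 and 2.66. Myc and Tnf were those not called. Beside the panel's 68.4%, the 9 of 11 became 1 with panel median scaling and 2 with TMM, with the size factors of DESeq2 or with all 12 tumors in one fit, and the 10 of 12 became 3, 3, 6 and 7. On the reference gene scale, with 8 tumors in a fit, edgeR called no gene of the 6 lists higher in SE against PBS or in GLA-SE against SE. DESeq2 with the reference gene size factors called 2 other early induced genes higher in each of these comparisons and 1 gene of the TLR4 list in GLA-SE against SE. In the latter, DESeq2 with its own size factors called 2 other early induced genes, edgeR called 2 and 1 without rescaling, and 1 other early induced gene with all 12 tumors in one fit.

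**Figure D5:**
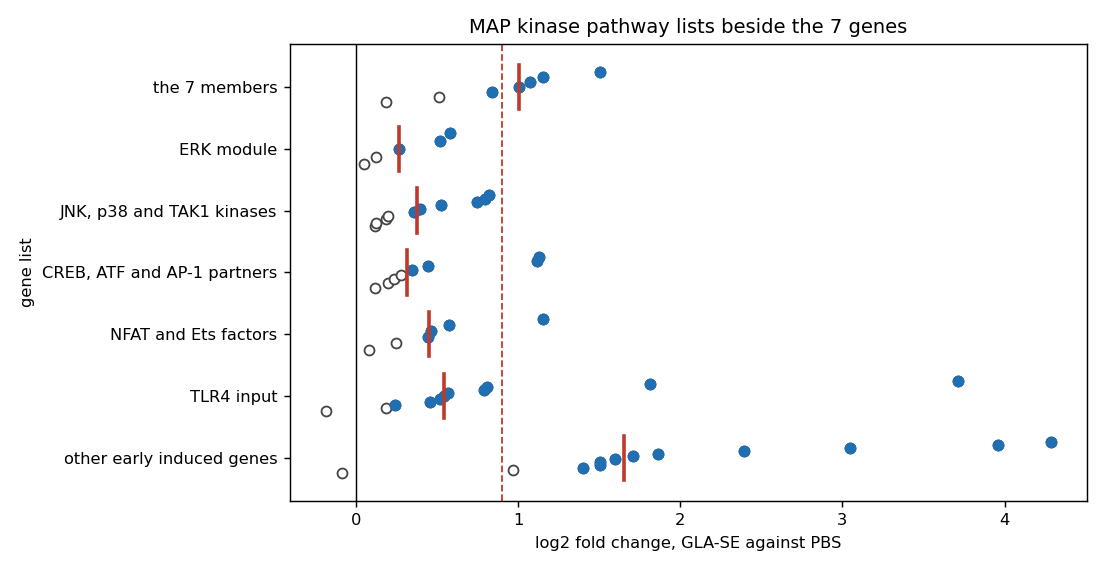
Log2 fold change (x axis) of each gene, GLA-SE against PBS, by list (y axis), filled where the adjusted p is under 0.05, with a red bar at the median of the list and a dashed line at the median of the 750 genes (0.90). The medians of the kinase, factor and TLR4 input lists (0.27 to 0.54) lie left of the dashed line, that of the 7 genes (1.00) just right of it and that of the other early induced genes (1.66) furthest right.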

How the data were processed

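RNA of 12 tumors was hybridized without amplification to barcoded nCounter probes for 770 immune and reference genes of the mouse, and the barcodes were counted. The authors deposited counts per gene and tumor. Although normalization in nSolver is described, these are whole numbers with unequal totals, so they were taken as raw. There was no alignment step. Groups were taken from the labels, and no tumor was found to be a repeat of another (lowest chi-square per degree of freedom between tumors of a group 6.00).

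The geNorm procedure over all 12 tumors kept 16 of the 20 reference genes, to whose geometric mean each tumor was scaled. The other 750 genes were tested, 4 tumors against 4, with edgeR 4.0.16 (quasi-likelihood test) in R 4.3.3, with no filter or covariate, and Benjamini-Hochberg adjustment over 750 genes at a threshold of 0.05. Standard errors and 95% intervals of log2 fold changes come from the same fit. Two-sided exact permutation tests used log2(normalized count + 1) over 70 assignments, and their smallest p is 0.0286. Counting error adds most for counts near 20, and 4 tumors a group limit all other precision. The fits were also run on simulated data in which some genes rose and others fell, unlike GLA-SE against PBS, where nearly all called genes rose. The outcome is not given here, so no result rests on it. Figures were drawn with matplotlib 3.10.9.

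The members and all lists were chosen with earlier results of these data known. Named in the text are the members, the ERK module, the 2 largest rises and falls of each other pathway list among called genes (there were no falls), and the 3 genes most like each member. A gene that this rule would name is not reported here. Alternatives were a filter of 20 counts in 4 tumors, other reference genes or scalings (panel median, TMM, none), a single fit of all 12 tumors, a block for the replicate number, limma 3.58.1, DESeq2 1.42.0, adjustment by Benjamini-Yekutieli, and fits that each left 1 tumor out.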

Additional observations from a re-analysis of the deposited data

Results flagged for a closer look

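Within groups of 4 tumors, 51 sets of values of the members and named pathway genes were searched for a lone high or low tumor by Dixon's ratio, and 4 were found where chance alone flags about 1 in 20 groups (2.55 of 51). In each the lone tumor was GLA-SE replicate 3, so the 4 are not independent of each other. The SE group was searched for the members only. Ptgs2 and Cd14 were named for their rise with GLA-SE, which a single high GLA-SE tumor enlarges. The number given for chance therefore does not hold for these 2 genes. Egr2 was at 141 there and at 59.0 to 60.3 in the other GLA-SE tumors. Map2k1 was at 2610 beside 1836 to 1934, Ptgs2 at 3955 beside 141 to 414, and Cd14 at 6806 beside 369 to 1168. That tumor also had the highest total count of the 12, 1612415. The part of its cell content in these values was not tested.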

How the results depend on the processing

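The number of members called for GLA-SE against PBS, 5, was 2 with panel median scaling (Egr1 and Dusp6, both lower), 1 with TMM (Dusp6, lower), 2 with the size factors of DESeq2 (Fos higher, Dusp6 lower), 3 without rescaling, 2 with Benjamini-Yekutieli adjustment (Fos and Jun) and 0 with all 12 tumors in one fit, where the SE tumors enter the estimate of spread and 255 genes were called higher. It was 4 to 6 on leaving out 1 tumor. In the other comparisons it was 0 under all alternatives. The genes higher for GLA-SE against SE, 16, were 0 with panel median scaling or Benjamini-Yekutieli adjustment, 3 with TMM, 54 with the size factors of DESeq2 and 77 with all 12 tumors in one fit. The cause of changes with the scaling was not tested. Hras fell below the filter on low counts and has no value there.

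With panel median scaling the log2 fold changes of GLA-SE against PBS were -0.80 for Egr1, -0.19 for Egr2, -0.50 for Egr3, -0.23 for Jun, -0.35 for Dusp4, -1.08 for Dusp6, -1.17 for Hras, -1.26 for Map2k1, -1.03 for Map2k2, -0.79 for Mapk3, -0.73 for Elk1, -0.51 for Map3k1, -0.52 for Map3k5, -0.17 for Creb5, -0.13 for Maf, -0.10 for Nfatc2 and -0.70 for Nfatc4. With TMM they were -0.42 for Egr1, -0.11 for Egr3, -0.70 for Dusp6, -0.79 for Hras, -0.87 for Map2k1, -0.65 for Map2k2, -0.41 for Mapk3, -0.34 for Elk1, -0.12 for Map3k1, -0.13 for Map3k5 and -0.32 for Nfatc4. With the size factors of DESeq2, where 193 genes were called higher and 153 lower, they were -0.36 for Egr1, -0.048 for Egr3, -0.64 for Dusp6, -0.74 for Hras, -0.81 for Map2k1, -0.58 for Map2k2, -0.34 for Mapk3, -0.28 for Elk1, -0.059 for Map3k1, -0.068 for Map3k5 and -0.26 for Nfatc4. Without rescaling they were -0.10 for Dusp6, -0.17 for Hras, -0.25 for Map2k1 and -0.023 for Map2k2. With all 20 reference genes Map2k1 was at -0.034. Leaving out 1 tumor gave -0.025 (without GLA-SE replicate 3) to 0.26 for Hras, which was also below 0 without PBS replicate 4 (-0.016), and -0.077 (without GLA-SE replicate 3) to 0.11 for Map2k1.

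For SE against PBS, Dusp6 was at -0.031 with panel median scaling, -0.053 with TMM and -0.038 without rescaling. For GLA-SE against SE, Fos was at -0.11 and Dusp4 at -0.37 with panel median scaling, Dusp4 at -0.032 with TMM and at -0.10 with the size factors of DESeq2, and Egr2 at 0.038 without rescaling. Jun was at 0.12 with the replicate number as a block and at 0.10 with limma. Leaving out 1 tumor gave -0.73 to 0.15 for Egr2 and -1.06 to 0.34 for Jun, both highest without SE replicate 4, -0.15 (without SE replicate 2) to 1.01 for Fos, which was at -0.11 without SE replicate 1, and -0.18 (without GLA-SE replicate 3) to 0.78 for Dusp4, which was at -0.0088 without SE replicate 2. The median gene was at -0.40 and -0.0087 for GLA-SE against PBS, at -0.037 and -0.0086 for SE against PBS and at -0.46 and -0.11 for GLA-SE against SE with panel median scaling and TMM, and at -0.18 for GLA-SE against SE with the size factors of DESeq2.

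Calls of some pathway genes for GLA-SE against PBS were lost on leaving out 1 tumor. Map2k2 lost its call without PBS replicate 1, 3 or 4 or GLA-SE replicate 2 (0.24 to 0.28), Elk1 without PBS replicate 1, 3 or 4 or GLA-SE replicate 1, 2 or 3 (0.47 to 0.66), Nfatc4 without PBS replicate 1, 3 or 4 or GLA-SE replicate 1, 2 or 4 (0.49 to 0.58), and Maf without PBS replicate 3 or GLA-SE replicate 1 or 2 (0.87 to 1.01).

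The groups share replicate numbers 1 to 4, which come from the sample titles. Tumors of the same number showed little shared deviation (r of -0.11 to 0.13, -0.13 to 0.18 and -0.25 to 0.15 in the 3 comparisons). With 4 such pairs in a comparison this cannot show that the numbers pair nothing. With the replicate block, 5 members were called for GLA-SE against PBS and 0 in each other comparison, and the called genes of the ERK module went from 3 to 1, those of the NFAT and Ets list from 4 to 2 and the genes higher for GLA-SE against SE from 16 to 0. Depth limited Egr2 most, at 33 to 128 deposited counts.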
